A study of Mus musculus with 3 samples.

Results

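The solute carriers described here were the protein-coding genes named Slc that reached 5 TPM in all 3 libraries of cytosolic RNA from mouse bone-marrow-derived macrophages. TPM is a length-normalised measure of transcript abundance, so different genes can be compared on it. The rule kept 76 of the 371 protein-coding Slc genes in the tables. A total of 79 reached the limit, and 3 of these (Slc40a1, Slc11a1 and Slc11a2) were among 7 named transporters that the rule sets aside, of which the other 4 stayed below it. The members were therefore chosen by their TPM, and their levels are given as a description without a test. Across all 21901 protein-coding genes, 5212 (23.8%) reached the same limit.

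Macrophages were grown from the bone marrow of C57BL/6J mice. All cells were exposed to Lipid A, the membrane anchor of bacterial lipopolysaccharide and the ligand of TLR4, at 100 ng/ml for 12 h, was then kept without it for 12 h, and received 100 ng/ml once more for 120 min. Total RNA of the cytosolic fraction was depleted of ribosomal RNA and sequenced from 1 µg. All 3 libraries belonged to this single group and were labelled biological replicates 1, 2 and 3. Age and sex were not recorded, and the labels name 1 donor entry for all of them without saying whether they came from separate animals or cultures, so the spread between libraries may be technical. Untreated cells were not analysed here, so no level can be assigned to Lipid A.

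Solute carriers are membrane proteins that move nutrients, metabolites and ions across the plasma membrane and the membranes of organelles, by facilitated diffusion, exchange, or coupling to sodium or proton gradients. Most families are numbered by sequence relatedness, and members of a family often share a type of substrate. In macrophages these proteins supply amino acids and sugars, load and empty the phagolysosome, handle copper, zinc and heme, and connect the mitochondrial matrix with the cytosol. A few, such as Slc15a4 and Slc38a9, also take part in signalling from the lysosomal surface.

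The libraries held 29376859, 64822118 and 37665844 expected counts, and no member had fewer than 423 in any of them. Protein-coding genes held 32.5%, 26.5% and 27.1% of the deposited TPM in replicates 1, 2 and 3, so other RNAs took up most of the scale. All 8 macrophage markers examined, among them Csf1r, Cd68 and Adgre1, exceeded 5 TPM. The lists of B cell, T and NK cell, dendritic cell, fibroblast, erythroid and mast cell markers had no gene at 1 TPM in all libraries, while 2 of 6 neutrophil markers and 1 of 3 endothelial markers did. Nuclear-retained long noncoding RNAs stood apart in replicate 3, where a list of 6 summed to 1997 TPM against 319 in replicate 1 and 176 in replicate 2.

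A few transporters carried much of the signal. The median member stood at 14.9, 13.3 and 14.1 TPM in the 3 libraries (mean 14.1 ± 0.798 SD, n = 3), beside 15.9 ± 1.51 for all protein-coding genes past the same limit. Summed TPM of the 76 genes came to 2366, 2117 and 2086, which was 83.6% ± 0.803 of the TPM of all protein-coding Slc genes and 0.766% ± 0.0354 of that of all protein-coding genes. The 7 highest members held 44.5% ± 1.98 of this sum. Mean levels reached 100 TPM in 5 members, 50 TPM in 9, 20 TPM in 29 and 10 TPM in 52, and the remaining 24 lay below 10 TPM.

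The highest member, Slc15a3, encodes a proton-coupled transporter of histidine and small peptides in the endosomal and lysosomal membrane (ENSMUSG00000024737.2, mm10 chr19:10839727-10859362, plus strand). Its level was 295, 268 and 242 TPM in the order of the replicates (268 ± 26.1), and it ranked 122 among all protein-coding genes. Slc3a2, the CD98 heavy chain that brings amino acid exchangers of the Slc7 family to the plasma membrane, had 173, 185 and 133 TPM (ENSMUSG00000010095.13, chr19:8706882-8723369, minus strand). Replicate 3 was the lowest for both genes, and the lowest Slc15a3 library lay above the highest Slc3a2 library. Slc6a6, the sodium-coupled importer of taurine, followed with 151, 130.4 and 134 TPM (chr6:91684053-91759066, plus strand). Slc25a5, the ADP/ATP exchanger ANT2 of the inner mitochondrial membrane, had 153, 108 and 140.4 TPM (chrX:36795651-36798807, plus strand). Ranges of Slc6a6 and Slc25a5 overlapped, and their order changed from library to library.

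Below these, Slc31a2, a copper transporter of endosomes and lysosomes, reached 129.7, 82.3 and 89.1 TPM, with replicate 1 above the other libraries (ENSMUSG00000066152.11, chr4:62262562-62298411, plus strand). Slc2a6, the hexose transporter GLUT6 of lysosomal membranes, had 104, 94.1 and 71.0 TPM (chr2:27021363-27027998, minus strand). Slc25a3, which imports phosphate into mitochondria for ATP synthesis, had 93.5, 73.3 and 76.6 TPM. The last 3 overlapped in range, and their means (100.4, 89.8 and 81.2 TPM) differed by less than the spread of Slc31a2 (SD 25.7). Slc43a2 (65.4 ± 6.73 TPM), Slc39a1 (52.3 ± 5.67), the scaffold gene Slc9a3r1 (44.8 ± 4.27), Slc48a1 (43.0 ± 6.72) and Slc7a8 (42.6 ± 4.25) completed the 12 highest, with ranks from 695 to 1057 among protein-coding genes.

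**Figure D1:**
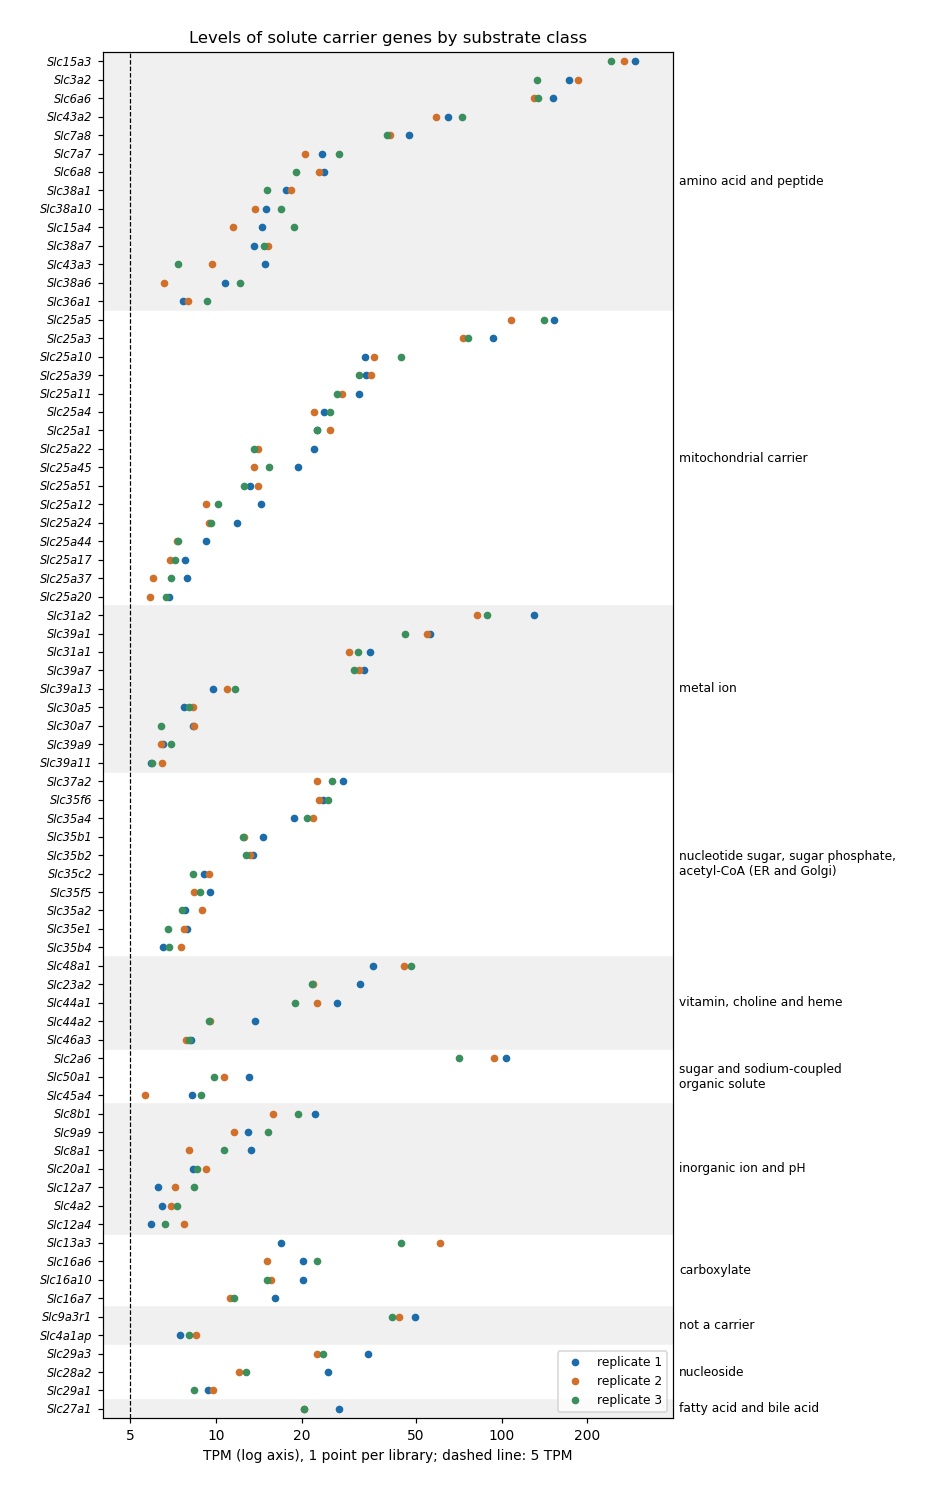
Each point is 1 library's TPM (log axis) for 1 of 74 of the 76 genes, grouped by substrate class, with colours for replicates 1 to 3 and a dashed line at 5 TPM. Slc15a3 lies highest at 242 to 295 TPM, most genes lie between 5 and 50 TPM, and Slc13a3 has the widest spread, from 16.9 to 61.1 TPM.

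For a view of the DNA in front of well-transcribed members, windows of 250 bases before the RefSeq gene start (build GRCm38.p6) were read for the 60 members that the promoter table matched. In 49 of them the start lay within 100 bases of the start of the member's leading transcript. Shown are the 5 windows of carriers at 20 TPM or more on average that met this limit and overlapped no annotated exon. The scaffold gene Slc9a3r1 met it too and is not shown, because it encodes no carrier. They belong to Slc25a5 (chrX:36795347-36795596, plus strand), Slc31a2 (chr4:62286179-62286428, plus strand), Slc2a6 (chr2:27027999-27028248, minus strand), Slc23a2, the sodium-coupled importer of vitamin C (chr2:132145109-132145358, minus strand), and Slc25a1, the mitochondrial citrate exporter (chr16:17928220-17928469, minus strand). Each is written 5′ to 3′ on the gene's strand, and capitals mark a match to the metal response, antioxidant response or kappaB motif.
Slc25a5: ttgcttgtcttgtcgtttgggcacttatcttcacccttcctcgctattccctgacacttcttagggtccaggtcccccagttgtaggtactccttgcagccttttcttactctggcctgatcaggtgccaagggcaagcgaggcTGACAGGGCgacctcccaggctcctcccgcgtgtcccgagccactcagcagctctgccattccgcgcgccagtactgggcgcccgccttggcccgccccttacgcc
Slc31a2: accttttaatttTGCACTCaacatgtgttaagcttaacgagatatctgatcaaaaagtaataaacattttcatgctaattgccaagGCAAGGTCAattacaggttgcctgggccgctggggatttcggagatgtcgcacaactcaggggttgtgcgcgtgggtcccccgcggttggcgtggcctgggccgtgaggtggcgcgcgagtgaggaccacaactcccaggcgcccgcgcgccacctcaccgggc
Slc2a6: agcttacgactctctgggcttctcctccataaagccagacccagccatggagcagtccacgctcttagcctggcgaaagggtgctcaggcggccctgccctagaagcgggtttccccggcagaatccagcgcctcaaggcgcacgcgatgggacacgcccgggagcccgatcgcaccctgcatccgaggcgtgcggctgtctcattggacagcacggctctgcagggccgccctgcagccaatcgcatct
Slc23a2: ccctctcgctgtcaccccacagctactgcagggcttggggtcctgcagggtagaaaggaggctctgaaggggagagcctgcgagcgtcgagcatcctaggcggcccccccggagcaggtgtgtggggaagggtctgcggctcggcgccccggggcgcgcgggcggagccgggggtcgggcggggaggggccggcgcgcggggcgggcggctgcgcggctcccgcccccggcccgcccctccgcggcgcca
Slc25a1: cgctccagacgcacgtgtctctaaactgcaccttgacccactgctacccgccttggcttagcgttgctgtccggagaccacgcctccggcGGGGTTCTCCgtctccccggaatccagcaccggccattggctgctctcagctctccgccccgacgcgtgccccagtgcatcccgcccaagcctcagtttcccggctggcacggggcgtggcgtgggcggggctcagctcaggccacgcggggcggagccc

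In Slc31a2, the capitals are a metal response element core from 238 to 232 bases before the start and an antioxidant response element core from 164 to 156, the latter on the opposite strand. This window lies within the annotated span of the gene, which begins further upstream. Slc25a5 held an antioxidant response element core from 106 to 98 bases before the start, and Slc25a1 a kappaB consensus from 160 to 151. Neither Slc2a6 nor Slc23a2 held any of the 3. A match describes the letters only and is not a measured site.

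The 60 windows were searched on both strands and set beside those of protein-coding genes at 5 TPM or more and beside all 16529 protein-coding windows. The metal response element core (TGCACNC or TGCGCNC) was found in 17 members' windows (28.3%), in 29.7% of the expressed genes' windows and in 24.7% of all. For the antioxidant response element core (TGACNNNGC) these values were 8 (13.3%), 13.0% and 10.8%, and for the kappaB consensus 5 (8.33%), 9.07% and 8.0%. The core of the site bound by the macrophage factor PU.1 (GAGGAAGT) occurred in 3, those of Slc12a4, Slc31a1 and Slc35b2 (5.0%), in 3.25% and in 2.31%. A CCAAT box (CCAAT) occurred in 19 (31.7%), in 35.2% and in 36.0%, and a GC box (GGGCGG) in 40 (66.7%), in 62.6% and in 44.8%. The amino acid response element (TGATGNAAT; 0.451% of expressed genes and 0.690% of all), the lysosomal CLEAR E-box (TCACGTGA; 2.37% and 1.06%), the interferon response element (3.54% and 3.09%) and the NRF1 consensus (1.83% and 1.12%) matched no member. CCAAT and GC boxes are not capitalised above. Matches of different motifs overlapped in 3 members' windows, each time with a CCAAT or GC box. Median GC content was 60.8% in the members' windows and 56.0% in all. It is not given here for the expressed genes' windows, so the difference cannot be assigned to the carriers. For Slc8a1, Slc28a2, Slc35b4, Slc27a1 and Slc35a2 the nearest window lay more than 5000 bases from the leading transcript's start.

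By substrate class, assigned by family, amino acid and peptide carriers held the largest part of the members' TPM. Their 14 members, of 69 such genes, accounted for 37.2% ± 0.921. The 16 carriers of the mitochondrial family Slc25, of 47, followed with 20.9% ± 1.22, and the 9 metal ion carriers, of 32, with 11.6% ± 0.609. Slc25a17 (7.26 ± 0.477 TPM) was placed in the mitochondrial class by its family number alone. With the genes set aside by the rule, 12 metal ion genes reached 5 TPM. Slc40a1, Slc11a1 and Slc11a2 count among the 32 but not in the share. The carriers of the endoplasmic reticulum and Golgi held 6.23% ± 0.313 (10 of 32), those of vitamins, choline and heme 5.01% ± 0.107 (5 of 18), sugar carriers 4.94% ± 0.557 (3 of 30), carriers of inorganic ions 4.18% ± 0.348 (9 of 56) and carboxylate carriers 4.15% ± 0.933 (4 of 19). None of the 42 genes for organic ion and vesicular carriers, many of which serve liver, kidney or neurons, was a member. Members came from 30 of 49 family numbers.

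**Figure D2:**
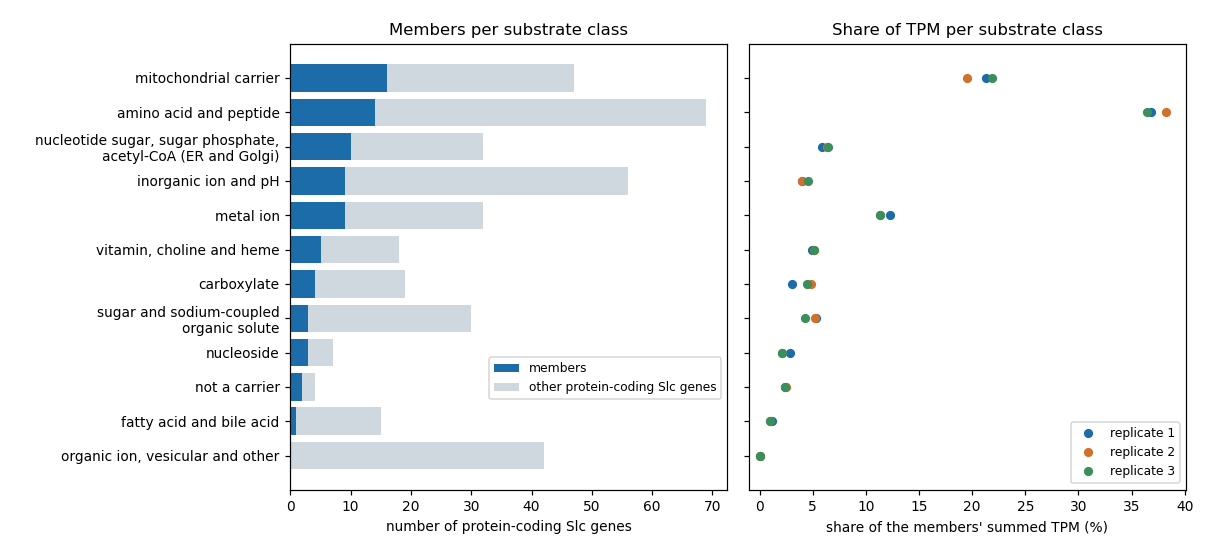
Left, bars give the number of members (blue) and of other protein-coding Slc genes (grey) in each of 12 substrate classes. Right, points give the share of the members' summed TPM in each class for replicates 1 to 3. Mitochondrial carriers had the most members (16), whereas amino acid and peptide carriers held the largest share (36.5% to 38.2%).

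Lysosomal carriers return the products of digestion to the cytosol. Of a list of 10 Slc genes of the lysosome, 8 were members and held 21.6% ± 0.728 of the members' TPM. Slc15a3 made up most of this, followed by Slc2a6. Slc48a1, which carries heme out of the phagolysosome after red cells are digested, had 35.4, 45.5 and 48.1 TPM. Slc29a3, the lysosomal equilibrative nucleoside transporter, had 33.9, 22.6 and 23.6 TPM. The first was lowest in replicate 1 and the second highest there. Slc15a4, the paralog of Slc15a3 that recruits the adaptor TASL in endosomal Toll-like receptor signalling, stood at 14.5, 11.4 and 18.7 TPM. Slc15a3 exceeded it 20.4-fold, 23.4-fold and 13.0-fold on TPM. In replicate 3, 8.34 of the 18.7 TPM of Slc15a4 came from 1 short transcript listed at 0 in the other libraries, which lowers the last ratio.

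Slc38a7, a lysosomal exporter of glutamine, had 14.5 ± 0.889 TPM, Slc36a1, a proton-coupled exporter of small amino acids, 8.31 ± 0.883, and Slc46a3 7.98 ± 0.175. The remaining list genes were below the limit: the arginine sensor Slc38a9 had 4.13, 2.52 and 3.23 TPM, and the sialic acid exporter Slc17a5 4.76, 3.85 and 4.46. Partners of carriers were measured as a separate list of 11 genes, of which 9 reached 5 TPM in all libraries. Lamtor1, an anchor of the lysosomal Ragulator complex that binds Slc38a9, was the highest at 71.2 ± 8.43 TPM. Bsg, the chaperone of monocarboxylate carriers, followed at 59.5 ± 1.65.

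Plasma membrane amino acid carriers centred on Slc3a2. This heavy chain carries no substrate itself and pairs with a light chain of the Slc7 family. Its member light chains were Slc7a8 (LAT2), an exchanger of neutral amino acids, with 47.5, 40.6 and 39.7 TPM, and Slc7a7 (y+LAT1), which exports cationic amino acids, with 23.5, 20.4 and 26.9. Light chains Slc7a5 (3.46, 4.18 and 2.50 TPM) and Slc7a6 (0.860, 1.01 and 0.950) stayed below 5 TPM. Slc3a2 exceeded the sum of Slc7a5, Slc7a6, Slc7a7, Slc7a8 and Slc7a10 by 2.30-fold, 2.79-fold and 1.89-fold on TPM, without counting Slc7a11, which is not analysed here. Slc43a2 (LAT4), a facilitator for large neutral amino acids that needs no heavy chain, had 64.9, 59.0 and 72.4 TPM, above each of these light chains in every library. Among sodium-coupled carriers, the glutamine importer Slc38a1 stood at 17.0 ± 1.66 TPM and the creatine importer Slc6a8 at 21.9 ± 2.63. Slc38a2, a relative of Slc38a1, had 10.9 and 9.10 TPM in replicates 1 and 2 but 4.88 in replicate 3, which kept it outside the rule.

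Mitochondrial carriers were led by adenine nucleotide and phosphate transport, the pair that feeds ATP synthase. Slc25a5 exceeded its isoform Slc25a4 (ANT1; 23.9, 22.0 and 25.0 TPM) 6.40-fold, 4.93-fold and 5.62-fold. Slc25a3 exceeded Slc25a4 3.92-fold, 3.33-fold and 3.07-fold. Among carriers of dicarboxylates and related substrates, Slc25a10, the dicarboxylate carrier, had 33.1, 35.8 and 44.3 TPM. Slc25a11, the oxoglutarate carrier of the malate-aspartate shuttle, had 31.7, 27.5 and 26.4. Replicate 3 was the highest for Slc25a10 and the lowest for Slc25a11. Slc25a39, which imports glutathione, stood at 33.4 ± 1.70 TPM and Slc25a1 at 23.4 ± 1.46. Slc25a22, a glutamate carrier, had 22.0 TPM in replicate 1 against 14.0 and 13.6. The lower members included the NAD carrier Slc25a51 (13.2 ± 0.746), the iron importer mitoferrin 1 (Slc25a37, 6.94 ± 0.930) and the acylcarnitine carrier Slc25a20 (6.45 ± 0.531). In a list of carriers with other symbols, 10 of 19 measured genes reached 5 TPM. Among them were the uncoupling protein Ucp2 with 181, 99.6 and 95.3 TPM, and Mpc1, a subunit of the pyruvate carrier, with 44.3 ± 11.0.

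Metal ion carriers among the members comprised both copper transporters of the Slc31 family and 7 zinc carriers of the Slc30 and Slc39 families. Slc31a2 exceeded the plasma membrane importer Slc31a1 (34.7, 29.1 and 31.5 TPM) 3.74-fold, 2.83-fold and 2.83-fold. The genes lie on the same strand of chromosome 4, 62315 bases apart. Slc39a1 (ZIP1), a zinc importer of the plasma membrane, had 56.3, 54.9 and 45.9 TPM, and Slc39a7 (ZIP7), which releases zinc from the endoplasmic reticulum, 33.0, 31.6 and 30.5. Slc39a13, Slc30a5, Slc30a7, Slc39a9 and Slc39a11 stood lower, from 10.8 ± 0.911 for Slc39a13 to 6.09 ± 0.300 for Slc39a11. Slc30a5 and Slc30a7 load zinc into the early secretory pathway.

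Carriers placed by family with the endoplasmic reticulum and Golgi include many that supply glycosylation and sulfation. The class was led by Slc37a2, a sugar phosphate exchanger with 27.8, 22.6 and 25.4 TPM. Slc35f6 stood at 23.8 ± 0.844 TPM and Slc35a4 at 20.4 ± 1.59. Slc35b1, which brings ATP into the endoplasmic reticulum, and Slc35b2, which brings the sulfate donor PAPS into the Golgi, had nearly the same level, 13.2 ± 1.21 and 13.1 ± 0.345 TPM. Their ratio was 1.09, 0.961 and 0.978 in the 3 libraries.

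Sugar, carboxylate, nucleoside and lipid (fatty acid and bile acid) carriers had few members by number: 3 of 30, 4 of 19, 3 of 7 and 1 of 15. Relative to class size, nucleoside carriers (42.9%) had the highest fraction of members among the carrier classes, and carboxylate carriers had 21.1%. The nucleoside members held 2.37% ± 0.436 of the members' TPM. After Slc2a6, the sugar carriers were Slc50a1 (11.1 ± 1.67 TPM) and Slc45a4 (7.54 ± 1.69). Among carboxylate carriers, Slc16a6 had 20.1, 15.1 and 22.5 TPM, Slc16a10, a facilitator for aromatic amino acids placed here by its family, 20.2, 15.6 and 15.1, and Slc16a7 (MCT2), a monocarboxylate carrier, 16.0, 11.2 and 11.5. Slc13a3, the sodium-coupled importer of succinate and related dicarboxylates, was the highest of this class by mean at 40.8 ± 22.3 TPM, with the libraries far apart. Slc29a3 exceeded the plasma membrane nucleoside transporter Slc29a1 (9.15 ± 0.724 TPM) 3.63-fold, 2.32-fold and 2.83-fold. Slc28a2, a sodium-coupled nucleoside importer, had 24.7 TPM in replicate 1 against 12.0 and 12.7. Slc27a1, named for fatty acid uptake, had 27.0, 20.3 and 20.3 TPM.

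Vitamin and choline carriers were led, after Slc48a1, by Slc23a2 (32.0, 21.9 and 21.6 TPM) and the choline carriers Slc44a1 (22.6 ± 3.83) and Slc44a2 (10.9 ± 2.45). Slc44a1 exceeded Slc44a2 1.93-fold, 2.37-fold and 1.99-fold. Inorganic ion carriers were headed by Slc8b1, the mitochondrial sodium/calcium exchanger (22.1, 15.8 and 19.4 TPM), the endosomal sodium/proton exchanger Slc9a9 (13.2 ± 1.87) and the sodium/calcium exchanger Slc8a1 of the plasma membrane (10.6 ± 2.57). Beside the carriers, 2 genes fell under the rule by symbol alone: Slc9a3r1, a PDZ scaffold that ties transporters to the actin cortex, and Slc4a1ap (7.98 ± 0.516), which encodes kanadaptin.

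Members just inside the limit were Slc45a4, Slc25a20, Slc12a4 and Slc39a11, whose lowest libraries had 5.62, 5.84, 5.88 and 5.91 TPM. Just outside lay Slc35a3, Slc7a6os and Slc10a7, with lowest libraries of 4.94, 4.92 and 4.90. In all, 24 Slc genes passed 5 TPM in some library without passing in each, and 118 were listed at 0 in all 3.

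Spread between the libraries was asked on TMM-scaled CPM (read counts over each library's size as adjusted by edgeR's trimmed mean of M values), which the rule did not use, although these values come from the same libraries. A chi-square test of the expected counts called 71 of 76 members (93.4%) as differing beyond counting error after Benjamini-Hochberg adjustment over 14558 genes. It called 72.0% of all genes tested and 88.5% of protein-coding genes at 5 TPM or more, so the members' share lay near the background. The 5 not called were Slc31a1, Slc35f5, Slc46a3, Slc25a17 and Slc25a20. Members had a median coefficient of variation of 10.8%, and the comparison genes 10.4%. The highest library exceeded the lowest by more than 1.5-fold in 7 members (9.21%, against 12.2%).

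Slc13a3 was the least even, with 89.0, 386 and 249.7 CPM in replicates 1, 2 and 3, a 4.34-fold range (coefficient of variation 61.5%). Replicate 1 departed from the mean of the other libraries by -1.82 on the log2 scale with a pseudocount of 1. The second quantification kept the order with 6.66, 34.5 and 22.6 TPM. No other member differed by more than 2-fold. In bulk RNA, fewer cells that express a gene and less RNA per cell cannot be told apart. Slc28a2 had 108 CPM in replicate 1 against 62.9 and 59.1, a departure of 0.82. Slc43a3, a carrier of purine bases placed with the amino acid carriers by its family, was lowest in replicate 3, at 23.2 CPM against 43.4 and 35.5 (-0.74). Slc38a6 was highest in replicate 3, at 47.9 CPM against 32.9 and 28.8 (0.62).

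Slc48a1 was low in replicate 1, at 130.2 CPM against 203 and 196 (-0.61), whereas Slc25a22 was high there (72.4 against 52.4 and 50.9, 0.48). Slc12a4, the potassium-chloride cotransporter KCC1, and Slc3a2 were high in replicate 2 (0.48 and 0.47). On deposited TPM the departures of Slc48a1, Slc12a4 and Slc3a2 were -0.39, 0.26 and 0.27. At the other end, Slc31a1 had 194, 196 and 194 CPM, a coefficient of variation of 0.517%. Slc35f5, Slc30a7 and Slc37a2 followed with 3.39%, 3.70% and 3.73%. The evenness of Slc31a1 belongs to this scale, because its deposited TPM was highest in replicate 1.

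**Figure D3:**
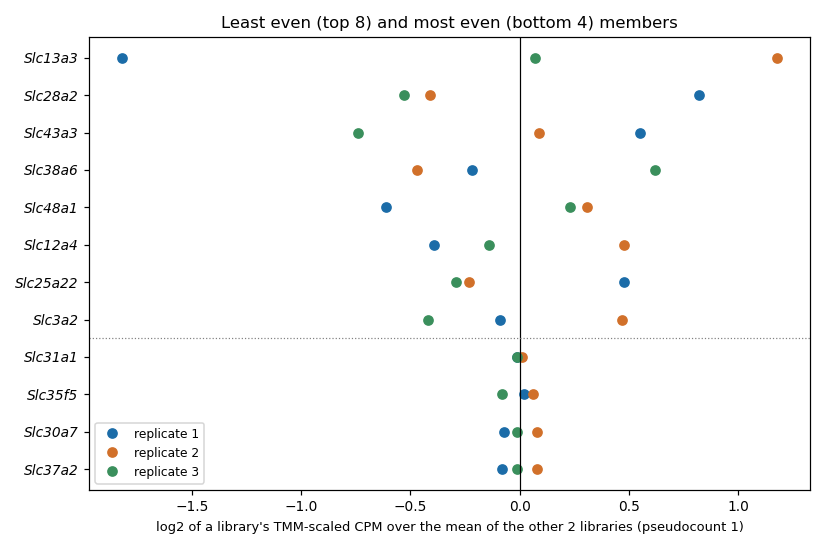
Points give, for the 8 least and the 4 most even members, the log2 ratio of a library's TMM-scaled CPM (pseudocount 1) to the mean of the other libraries. Slc13a3 departs furthest, at -1.82 in replicate 1, and all points of the 4 most even members lie within 0.1 of 0.

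On this scale 43 members (56.6%) were highest in replicate 2, 19 (25.0%) in replicate 1 and 14 (18.4%) in replicate 3. Among all protein-coding genes at 5 TPM or more the shares were 47.3%, 39.3% and 13.4%. The lowest library was replicate 1 for 31 members (40.8%, against 30.3%), replicate 2 for 11 (14.5%, against 23.7%) and replicate 3 for 34 (44.7%, against 46.0%). The 10 carriers placed by family with the endoplasmic reticulum and Golgi were all highest in replicate 2, and so were 8 of the 9 metal ion carriers. These counts depended on the scale. On TPM as deposited, 4 of the 10 and 3 of the 9 were highest in replicate 2, beside 15.7% of protein-coding genes at 5 TPM or more. On TPM rescaled over protein-coding genes the counts were 7 and 5, beside 41.2%. Deposited TPM moved the median departure of all these protein-coding genes to 0.20, -0.12 and -0.10 in replicates 1, 2 and 3, against 0.02, 0.06 and -0.09 on TMM-scaled CPM. With DESeq2 size factors the counts were 9 and 7, beside 42.8% of these genes, and in the second quantification 10 and 8, beside 59.7%. Of the 16 carriers of the mitochondrial family Slc25, 6, 5 and 5 were highest in replicates 1, 2 and 3. On deposited TPM their counts were 11, 3 and 2, beside 71.1%, 15.7% and 13.2% of protein-coding genes at 5 TPM or more. In the second quantification they were 6, 10 and 0, beside 35.9%, 59.7% and 4.41%.

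At the transcript level, 71 of the 76 members (93.4%) were led by a protein-coding transcript, against 94.9% of protein-coding genes at 5 TPM or more. The leading transcript held more than 50% of the gene's TPM in 59 members and more than 90% in 27. Its median share was 78.9%, beside 82.0%. Slc31a2, Slc39a1 and Slc9a3r1 came almost wholly from 1 transcript (100.0%), and Slc25a5 from Slc25a5-201 (99.7% ± 0.174). Slc3a2 was divided between the coding transcripts Slc3a2-201 (61.1% ± 3.86) and Slc3a2-207 (30.4% ± 3.56).

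Slc27a1 was led by the retained-intron transcript Slc27a1-202, with 60.1% ± 2.97, and retained-intron transcripts together held 99.3%, 99.4% and 100.0% of its TPM. Its coding transcript Slc27a1-207 held 0.460% ± 0.402 in the first quantification and 19.3% on average in the second. The level of this gene thus describes RNA that is annotated as noncoding for the most part. Slc35b4, a Golgi carrier of UDP-sugars, was led by the retained-intron transcript Slc35b4-204 (49.1% ± 4.0). Transcripts annotated for nonsense-mediated decay led Slc35b1 (Slc35b1-202, 54.9% ± 5.36) and the aspartate/glutamate carrier Slc25a12 (Slc25a12-207, 53.4% ± 7.24). Slc35a2, the UDP-galactose carrier, had a non-stop-decay transcript and the coding Slc35a2-201 at the same mean share of 33.5%. The second quantification put a coding transcript first for Slc35b1 and Slc35a2.

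Low leading shares among members with a coding leader were found in Slc4a1ap (28.8% ± 1.94), Slc16a7 (33.4% ± 3.92), Slc35b2 (38.6% ± 4.72), Slc25a44 (39.5% ± 5.12) and Slc25a37 (39.8% ± 9.04). Slc25a37 divided its TPM among a coding, a retained-intron (35.8% ± 10.2) and a nonsense-mediated decay transcript (22.0% ± 5.94). Its coding transcript did not lead in the second quantification, where these held 15.4%, 37.2% and 37.4% on average. For Slc15a4, the coding Slc15a4-201 held 74.4%, 62.1% and 40.1%, and the short processed transcript Slc15a4-211, of 166 bases, 0%, 0% and 44.7%. In replicate 3 this transcript alone accounted for 8.34 of the 18.7 TPM of Slc15a4, and the second quantification gave it 2.97% on average. The higher TPM of Slc15a4 in replicate 3 was not seen in its CPM, which were 53.7, 42.8 and 45.7.

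Retained-intron transcripts were above 0 in 48 members. Their share was highest in replicate 3 in 44 of these and in replicate 2 in 4, and 80.4% of 3356 protein-coding genes with such transcripts were also highest in replicate 3. The mean share in the 48 members was 5.79%, 6.93% and 9.70% in replicates 1, 2 and 3, and in the comparison genes 5.41%, 5.85% and 8.47%. Nuclear-retained RNAs moved with this: Malat1 had 191, 133 and 952 TPM, and Neat1 14.3, 10.9 and 55.6. Their part in the result was not tested.

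**Figure D4:**
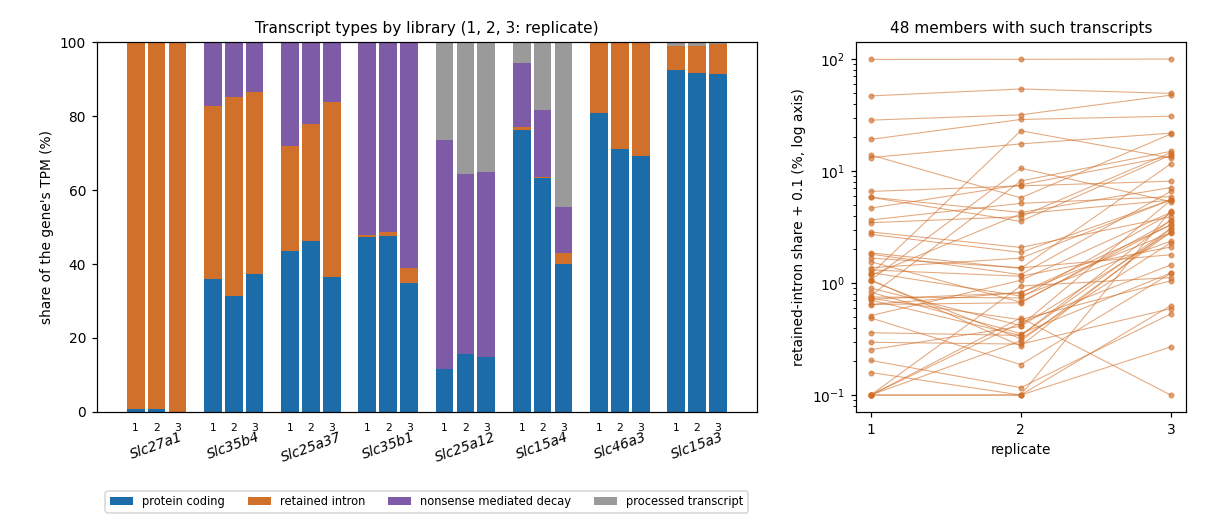
Left, stacked bars give the share of a gene's TPM by annotated transcript type in replicates 1 to 3 for 8 members, 7 with much noncoding signal and Slc15a3 for comparison. Types not listed in the legend are left out. Right, lines give the retained-intron share plus 0.1 (log axis) of the 48 members with such transcripts, 44 of which are highest in replicate 3.

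A second deposited quantification, summed per gene, gave lower TPM, with a median ratio to the first of 0.485 for members and 0.491 for protein-coding genes at 5 TPM or more. After rescaling both over protein-coding genes the ratio was 0.978 for members and 0.990 for the comparison genes. No member differed by more than 2-fold in all libraries, beside 0.403% of the comparison genes. Slc38a6, an amino acid carrier of the SNAT family, came closest, with a log2 ratio of 1.00 on the mean. Slc30a7 (0.55), Slc25a51 (0.38) and Slc39a13 (0.28) were also higher in the second, and Slc15a4 (-0.20), Slc4a1ap, Slc46a3 and Slc30a5 (-0.18 each) were the furthest below.

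The leading transcript was the same in both quantifications for 67 members (88.2%, against 89.4%). Slc25a51-201 held 63.7% ± 10.5 of Slc25a51 in the first and 4.08% in the second, which put Slc25a51-202 first with 55.1%. For Slc30a7, the second put the processed transcript Slc30a7-203 first with 63.1%, where the first had 40.4% ± 12.3. Slc38a10 changed its leader from Slc38a10-201 (54.2% ± 10.3) to Slc38a10-216 (58.1%).

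**Figure D5:**
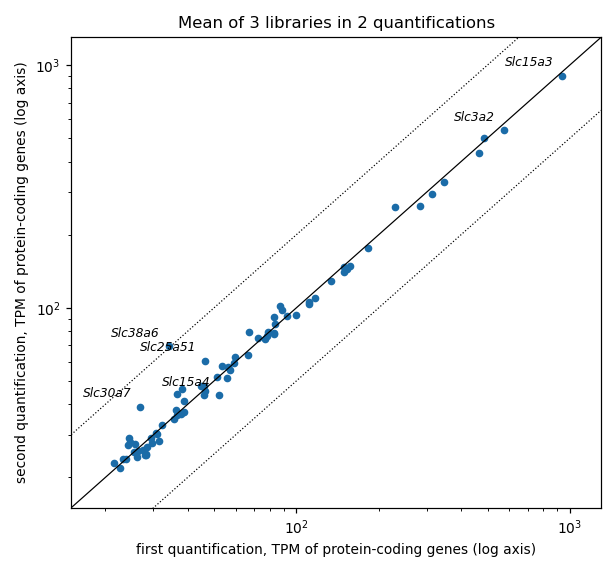
Each point is 1 of the 76 members, at its mean TPM over the 3 libraries in the first (x) and second (y) quantification, both rescaled over protein-coding genes, on log axes. The solid line marks equal values and the dotted lines a 2-fold difference. Slc38a6 lies at the upper dotted line (log2 ratio 1.00).

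Some levels are shared with overlapping genes. Exonic bases were shared with another gene by 30 members, and for 7 of them the partner was a protein-coding gene of the opposite strand at 5 TPM or more. Slc15a3 shares 1541 bases with Tmem132a (52.5 TPM on average), Slc4a2 shares 1141 with Fastk (9.17 TPM), Slc16a6 shares 1052 with Amz2 (11.1 TPM) and Slc39a13 shares 215 with Psmc3 (40.4 TPM). Whether counting used the strand is not given in the sources used here, so these levels are uncertain to that extent. The annotated pseudogenes Slc25a5-ps (listed at 0 in all libraries) and Slc39a1-ps (0.0600, 0.0700 and 0.0400 TPM) had almost no signal.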

How the data were processed

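Each of the 3 libraries had a deposited gene table and 2 deposited transcript tables on mm10. Per the file headers, expected counts and TPM stood in the gene table and in 1 transcript table, and estimated counts and TPM in the other. They are called the first and second quantification here. The aligner is not given in the sources used here, and neither are the quantifiers, annotation release or strand setting. Gene symbols and transcript types were read from the second transcript table, and positions from GENCODE M21. Of 81881 rows, 55450 matched a named mouse gene. Rows without a gene (0.360%, 0.176% and 0.179% of counts in replicates 1, 2 and 3) stayed out of library sizes, while the deposited TPM was kept as it was.

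Expected counts were rounded, scaled by TMM (edgeR 4.0.16; DESeq2 1.42.0 size factors as the alternative, R 4.3.3) and compared by chi-square over genes with at least 10 counts in 1 library, Benjamini-Hochberg threshold 0.05, tested on simulated data. A departure is log2(CPM + 1) minus that of the mean of the other libraries. The rest was done with scipy 1.17.1, pandas 2.3.3 and numpy 2.4.6 in Python 3.11.15, with matplotlib 3.10.9 for plots.

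The members, lists and tests were chosen with earlier results of these data known. Named genes were the 12 highest members, the 4 highest of each class, the 8 least and 4 most even, the 4 on each side of the limit, the 4 that differed most in each direction between the quantifications, members with a noncoding or low leading transcript, and lysosomal list genes. A few genes that this rule picks are not reported here. Other genes, paralog pairs among them, were chosen after their values were seen. With 1 group, no comparison of conditions was made.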

Additional observations from a re-analysis of the deposited data

How the results depend on the processing

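No paired analysis was possible because the labels give 1 group. With the limit kept at 5 on each scale, the number of members was 48 in the second quantification, of which 47 were among the 76. On TPM rescaled over protein-coding genes it was 131. The same limit is stricter on a scale with lower values and looser on one with higher values, so these numbers are not like for like. The median level was 7.21 TPM in the second quantification, 49.4 on rescaled TPM and 0.107 over all protein-coding Slc genes without the limit, where mitochondrial carriers held 19.4%. Members highest in replicate 1 numbered 40 on deposited TPM (52.6%, against 71.1% of protein-coding genes at 5 TPM or more). Those highest in replicate 2 numbered 18 on deposited TPM (23.7%, against 15.7%). Those highest in replicate 3 numbered 28 on rescaled TPM (36.8%, against 29.8%) and 5 in the second quantification (6.58%, against 4.41%). On deposited TPM, 2 members differed over 2-fold between the quantifications in all 3 libraries. The median ratio on this scale, 0.485 for members and 0.491 for protein-coding genes at 5 TPM or more, already lay near that limit. The share of the comparison genes past it on this scale is not given here. The protein-coding share of deposited TPM differed between the libraries. Its part in the changes of the highest library was not tested, and neither were other causes.

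Leaving out 1 library gave 77 to 85 members, a number that cannot fall because the limit then applies to fewer libraries. The median level was then 13.7 to 14.5 TPM and the mitochondrial share 20.4% to 21.6%. Chi-square called 56 to 60 members, beside 65.2% to 73.6% of protein-coding genes at 5 TPM or more. A protein-coding transcript led 70 to 71 members. The departures of 8 named members kept their sign with a pseudocount of 0.1 and on deposited TPM, where that of Slc48a1 was -0.39 against -0.61, that of Slc12a4 0.26 against 0.48 and that of Slc3a2 0.27 against 0.47. Counts as low as 423 per member, divided over its transcripts, limit the transcript shares, and 3 libraries limit every SD.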
